A study of Canis lupus familiaris with 36 samples.

Results

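The miR-200 family, miR-203 and miR-205 are microRNAs of epithelial cells. The 7 members described here are cfa-miR-200a, cfa-miR-200b, cfa-miR-429, cfa-miR-200c, cfa-miR-141, cfa-miR-203 and cfa-miR-205, written below without the prefix for dog. They were chosen by their names among the 453 mature miRNAs of the deposited count table, 1 entry each, and all 7 were found. Small RNA was sequenced from formalin-fixed, paraffin-embedded (FFPE) heart tissue of 6 dogs with cardiac hemangiosarcoma (HSA), a malignant tumor of endothelial cells, and from heart tissue of 6 control dogs that died of non-neoplastic causes. Each library holds whole sections of 1 dog, so tumor cells, vessels, blood and remaining heart muscle are read together, and lower numbers of a cell type and less RNA per cell cannot be told apart. The series also lists 18 splenic HSA and 6 splenic control samples, which were not analysed here. The libraries were grouped by their titles. The treatment field of the labels names the opposite condition for every cardiac library, and with that field each direction given below would be reversed.

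MiRNAs are short RNAs that bind messenger RNAs through a seed near their 5′ end and lower the output of the bound messages. The miR-200 family holds epithelial cells in their state by repressing ZEB1 and ZEB2, factors that switch off E-cadherin, and is typically low in mesenchymal and endothelial cells. In mammals its members come from separate genomic clusters. MiR-200b, miR-200a and miR-429 form the first cluster and were consecutive entries in the RefSeq gene table of the dog assembly UU_Cfam_GSD_1.0. MiR-200c and miR-141, the second cluster, were likewise next to each other in that table. By seed the family divides differently, with miR-200b, miR-200c and miR-429 sharing one seed and miR-200a and miR-141 sharing another. MiR-203 is best known from stratified epithelium such as the epidermis, where it represses the stem cell factor TP63 and promotes differentiation. MiR-205 is typical of basal epithelial cells and also targets ZEB1 and ZEB2.

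After entries identical in name and counts were merged, the libraries held from 6999830 to 11668822 counts in control and from 2018959 to 8999025 in HSA. Levels are given as CPM, counts scaled to a common library total and normalized by edgeR's TMM method, which assumes that most miRNAs do not differ between libraries. A count of 3, taken as the floor of a library, corresponds to between 0.306 and 0.482 CPM in control and between 0.332 and 1.35 CPM in HSA. The tissue was checked against 8 miRNAs of heart and skeletal muscle, led in level by miR-133a, miR-133c, which had nearly identical counts, and miR-1. Their summed level, which holds the counts of both miR-133a and miR-133c, ran from 189921 to 271362 CPM in control. It was 190256 CPM in HSA replicate 1 and 233009 CPM in HSA replicate 6, within the control range, and lower in the other 4 HSA libraries, at 94724 CPM in replicate 5, 40090 CPM in replicate 4, 21821 CPM in replicate 2 and 942 CPM in replicate 3. HSA replicate 3 thus had hardly any muscle miRNA, with 2 of the 8 at 0, and it held 204390 CPM of the hepatocyte miRNA miR-122, against 66.7 to 478 CPM in the other HSA libraries and 4.99 to 43.9 CPM in control. The fitted members, the cluster ratios and the marker lists are therefore also given without HSA replicate 3.

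The members were rare in control hearts and more abundant, but very unequally so, in HSA. Their summed level was between 7.74 and 20.9 CPM in control. In HSA it was 43.2 CPM in replicate 6, 61.0 CPM in replicate 1, 190 CPM in replicate 3, 339.5 CPM in replicate 2, 544 CPM in replicate 4 and 3285 CPM in replicate 5. All 7 members exceeded 3 counts in HSA replicates 4, 5 and 6, and between 2 and 4 members did so in every other library of either group. This depends in part on depth, since 3 counts are 0.352 CPM in HSA replicate 6 and 1.35 CPM in HSA replicate 1. MiR-203 and miR-200c were the only members above 3 counts in all 12 libraries.

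**Figure D1:**
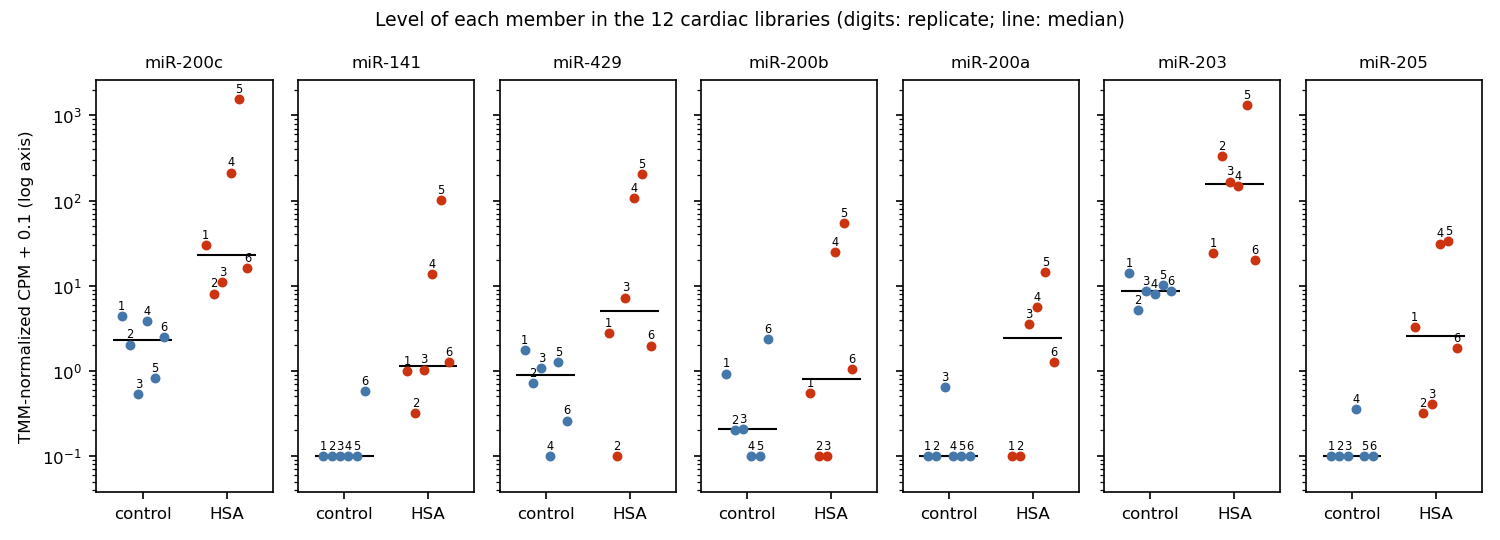
TMM-normalized CPM of the 7 members, plus 0.1 so that a level of 0 can be drawn on the log axis, with 1 point per library (blue control, red HSA, the digit giving the replicate) and a line at the group median. HSA replicates 4 and 5 lie at the top for the miR-200 members, and the groups are apart for miR-200c and miR-203.

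HSA was compared with control by the quasi-likelihood test of edgeR, for which 225 mature miRNAs had enough counts. Those with an adjusted p (Benjamini-Hochberg) below 0.01 whose log2 fold change was 1 or more in size were called. Of all miRNAs tested, 25.8% were called, 18.7% as higher and 7.11% as lower in HSA. Of the 7 members, 3 passed the filter on low counts, miR-200c, miR-203 and miR-429. MiR-200c and miR-203 were called, both higher in HSA. MiR-203 reached the filter level of 1.26 CPM in all 12 libraries and miR-200c in all 6 HSA and 4 control libraries, whereas miR-429 reached it in 5 HSA libraries and 1 control library. MiR-200a, miR-200b, miR-141 and miR-205 did not pass and are described by their counts. Over all tested miRNAs the log2 fold change had a median of 0.34, so a small part of each value is shared by most miRNAs.

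MiR-200c, the most abundant member of the second cluster, had between 0.431 and 4.28 CPM in control (median 2.17). In HSA it had 7.98 CPM in replicate 2, 10.9 CPM in replicate 3, 16.2 CPM in replicate 6, 29.6 CPM in replicate 1, 213 CPM in replicate 4 and 1569 CPM in replicate 5. All HSA values lay above all control values, as did those of 15.1% of the miRNAs tested. Means were 308 ± 623 CPM (SD, n = 6) for HSA against 2.26 ± 1.56 CPM (SD, n = 6) for control (log2 fold change 7.09, standard error 1.56, edgeR adjusted p = 0.00413). Much of the size of this rise came from HSA replicates 4 and 5. Without replicate 5 the log2 fold change was 4.61, and without both it was 2.63 (standard error 0.63, adjusted p = 0.0097), still past the thresholds, which 11.6% of the miRNAs tested passed as higher in that fit. Without HSA replicate 3 it was 7.34. When control replicate 1, 2, 4, 5 or 6 was left out, the call was lost, with an adjusted p between 0.0106 and 0.0124 from edgeR.

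MiR-203 was the steadiest member in control hearts, with between 5.09 and 14.1 CPM (median 8.52). HSA replicates 6 and 1 had 20.1 and 24.2 CPM, HSA replicates 4 and 3 had 148 and 167 CPM, HSA replicate 2 had 331 CPM and HSA replicate 5 had 1310 CPM. No HSA library overlapped with control. For 15.1% of the miRNAs tested all HSA values were above all control values, and for 10.7% all were below. Means were 334 ± 492 CPM (SD, n = 6) for HSA against 9.02 ± 2.96 CPM (SD, n = 6) for control (log2 fold change 5.21, standard error 0.98, edgeR adjusted p = 0.00193). MiR-203 stayed called when any 1 library was left out, with log2 fold changes from 3.93 to 5.46. Without HSA replicates 4 and 5 together it was 3.73 (standard error 0.72, adjusted p = 0.00442), and without HSA replicate 3 it was 5.34.

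MiR-429, the most abundant member of the first cluster, had at most 1.66 CPM in control (median 0.791). In HSA it was at 0 in replicate 2, at 1.88 CPM in replicate 6, at 2.69 CPM in replicate 1 and at 7.16 CPM in replicate 3. HSA replicates 4 and 5 stood apart with 108 and 202 CPM. Thus 5 HSA values exceeded the highest control value and 1 was at 0. Its log2 fold change (6.11, standard error 1.67, edgeR adjusted p = 0.0104) missed the threshold. DESeq2, the tool of the study, called it (log2 fold change 6.07, adjusted p = 5.11e-05), as did edgeR without HSA replicate 2 (6.33, adjusted p = 0.00619) and with scaling by library size only (6.63, adjusted p = 0.00607). Without HSA replicates 4 and 5 the value was 1.65 (standard error 1.06, edgeR adjusted p = 0.246), and without HSA replicate 3 it was 6.34.

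The partner of miR-200c, miR-141, was absent from 5 control libraries and had 3 counts in the remaining one. In HSA, replicates 1 and 2 had 2 counts each, replicate 3 had 3, replicate 6 had 10, replicate 4 had 61 and replicate 5 had 544. So 3 of the 6 HSA libraries exceeded the floor and no control library did. Pooled over libraries, the level in HSA was 298 times that in control, with an exact 95% interval of 101 to 1447 that covers counting error only. Without HSA replicates 4 and 5, which held most counts, 17 counts remained and the ratio was 11.6 (3.36 to 61.9).

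Both miR-200a and miR-200b showed counts in HSA replicates 4, 5 and 6. MiR-200a had 25, 76 and 10 counts there, 11 in HSA replicate 3 and 0 in HSA replicates 1 and 2. In control it had 5 counts in replicate 3 and 0 elsewhere. MiR-200b had 111, 289 and 8 counts in HSA replicates 4, 5 and 6, 1 count in HSA replicate 1 and 0 in HSA replicates 2 and 3. Its control libraries overlapped with these, since control replicate 6 had 14 counts and control replicate 1 had 6. Only 2 HSA libraries were above every control library for miR-200b, and without these, replicates 4 and 5, its pooled level in HSA was 0.839 times that in control (exact 95% interval 0.340 to 1.90). Like that of miR-141, this interval covers counting error only.

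MiR-205, the basal epithelial member, was likewise at or under the floor in every control library, with 2 counts in control replicate 4 and 0 in the other 5. HSA replicates 4 and 5 had 31.2 and 33.4 CPM. HSA replicates 6 and 1 had 15 and 7 counts (1.76 and 3.14 CPM), and HSA replicates 2 and 3 had 2 and 1 (0.222 and 0.311 CPM). Unlike those of miR-200c, miR-141 and miR-203, its levels in HSA replicates 4 and 5 lay close together. The pooled level in HSA was 247 times that in control (exact 95% interval 67.8 to 2047), and 25.6 times without replicates 4 and 5 (6.39 to 223). These intervals cover counting error only and not the spread between dogs. By edgeR without the filter on low counts and without replicates 4 and 5, miR-205 was not called (adjusted p = 0.0192).

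When edgeR was run without the filter on low counts, 4 members were called, all higher in HSA, beside 13.1% of the 320 miRNAs tested in that fit. These were miR-200c, miR-203, miR-141 (log2 fold change 7.78, standard error 1.89, adjusted p = 0.00732) and miR-205 (7.53, standard error 1.61, adjusted p = 0.00479). MiR-200a had a log2 fold change of 5.12 (adjusted p = 0.0234) and miR-200b one of 4.58 (adjusted p = 0.0625). DESeq2 called 5 members, adding miR-429, beside 17.3% of its tested miRNAs called higher. Without HSA replicates 4 and 5 and without the filter, miR-200c and miR-203 alone among the members were called, both higher, beside 11.4% of the 308 miRNAs tested in that fit, and the fitted value of miR-200b was -0.54 (adjusted p = 0.798). For members at or near 0 in control, the fold changes fitted by edgeR depend on its prior count, and those of both tools rest on few control counts.

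**Figure D2:**
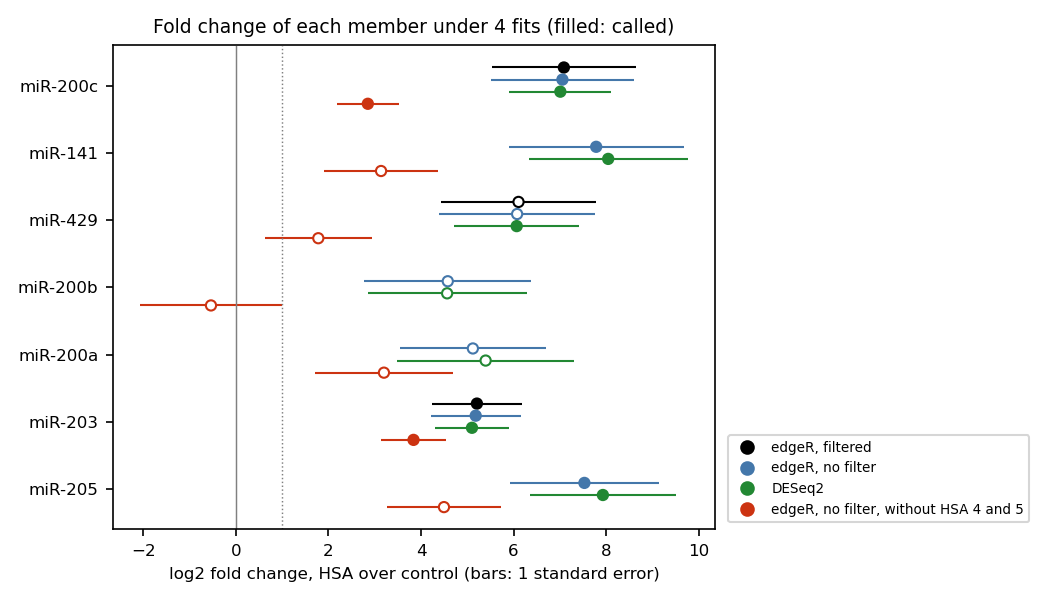
Log2 fold change of HSA over control for each member with 1 standard error under 4 fits, filled symbols marking calls; the dotted line is a log2 fold change of 1. The red symbols, without HSA replicates 4 and 5, lie to the left of the others for each member, and miR-200c and miR-203 alone stay filled there.

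The second cluster, miR-200c and miR-141, gave more counts than the first in every HSA library, but the share varied between libraries. Of the counts of the 5 family members, the second cluster had 52.8% in HSA replicate 3 (95% Wilson interval 41.4 to 63.9), 62.1% in replicate 4 (59.8 to 64.5), 81.3% in replicate 6 (75.0 to 86.3), 86.1% in replicate 5 (85.4 to 86.7), 90.7% in replicate 1 (82.0 to 95.4) and 100% in replicate 2 (95.1 to 100). The control libraries had between 13 and 49 counts of the family each, and shares from 21.1% to 100% (median 58.9%). The groups therefore overlapped. HSA replicates 4 and 5, which held the most counts, differed by more than their counting error, and both clusters were higher there than in any other library. The first cluster summed to 138 CPM in HSA replicate 4 and 271 CPM in HSA replicate 5. The second cluster summed to 227 and 1671 CPM.

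Within a cluster, the proportions of the members were closer between these libraries. The ratio of miR-200c to miR-141 counts was 15.8 in HSA replicate 4 (exact 95% interval 12.2 to 20.8), 15.4 in replicate 5 (14.1 to 16.8) and 13.8 in replicate 6 (7.28 to 29.4). In the first cluster, the ratio of miR-429 to miR-200b was 4.41 (3.58 to 5.46) in replicate 4 and 3.73 (3.28 to 4.27) in replicate 5, and that of miR-200b to miR-200a was 4.44 (2.86 to 7.15) and 3.80 (2.94 to 4.96). The intervals of replicates 4 and 5 overlapped. In replicate 6, with 10 counts of miR-200a and 8 of miR-200b, the latter ratio was 0.8 (0.274 to 2.25), below both. Across clusters, the intervals of replicates 4 and 5 did not overlap, as the ratio of miR-200c to miR-200b was 8.69 (7.14 to 10.7) in replicate 4 and 29.0 (25.7 to 32.7) in replicate 5, and that of miR-141 to miR-200a was 2.44 (1.51 to 4.06) and 7.16 (5.62 to 9.22). By seed, miR-200b, miR-200c and miR-429 together made up 94.8% (93.6 to 95.8) of the family in replicate 4 and 94.0% (93.5 to 94.5) in replicate 5, and 80.6% (70.0 to 88.0) in replicate 3, the lowest HSA value. Members are captured with unequal efficiency during ligation, so a ratio within a library is not a ratio of molecules in tissue, and how reads that fit several close members were assigned is not given in the sources used here.

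**Figure D3:**
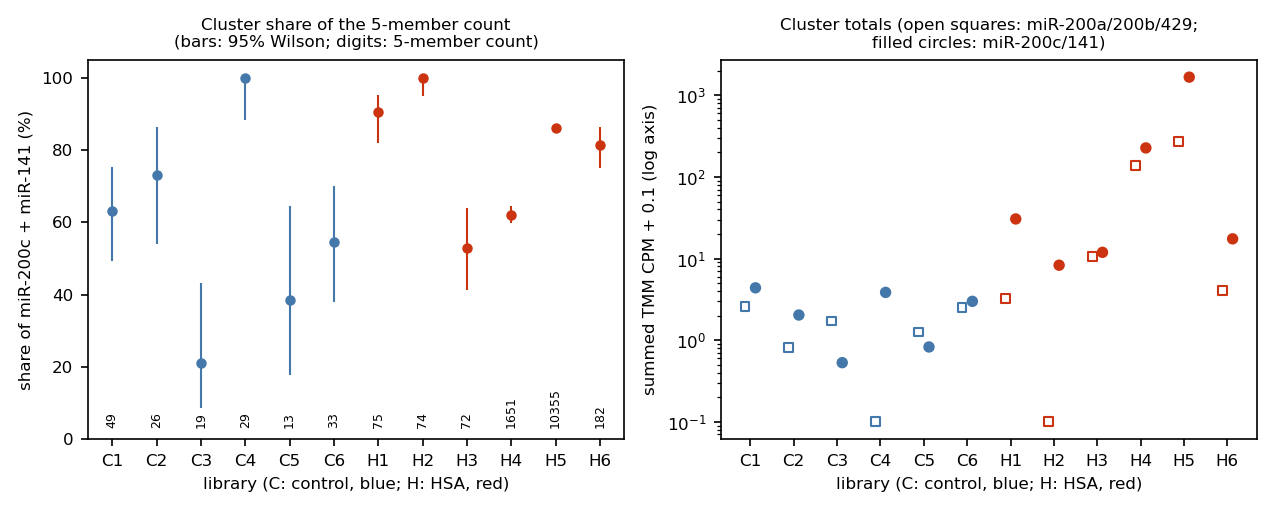
Left, share of miR-200c and miR-141 in the counts of the 5 miR-200 members per library with 95% Wilson intervals and the count of the 5 members printed below; right, summed TMM CPM of each cluster plus 0.1 on a log axis. The shares of control and HSA overlap, and both cluster totals are highest in HSA replicates 4 and 5.

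Whether the balance of the clusters differed between HSA and control was tested on the 2 pairs that take 1 member of each cluster with the same seed. The log2 ratio of miR-200c to miR-200b, with 0.5 added to each count, was 5.13 ± 1.46 (SD, n = 6) in HSA and 2.83 ± 1.99 (SD, n = 6) in control. The difference of 2.30 had an exact permutation p of 0.0519, two-sided, and 0.104 after Benjamini-Hochberg adjustment over both pairs, so it did not pass 0.05. With 1 in place of 0.5 added, the adjusted value was 0.0433, and without HSA replicate 3 the difference was 2.10 (exact permutation p adjusted 0.0952). The log2 ratio of miR-141 to miR-200a was 1.17 ± 1.74 (SD, n = 6) in HSA and -0.11 ± 1.99 (SD, n = 6) in control. In 4 of the 6 control libraries both had 0 counts, so that their ratio there is set by the added 0.5, and the exact permutation p of 0.253 says nothing of the balance of these members in control. The difference of 1.28 was 1.86 without HSA replicate 3 or control replicate 6 and 0.61 without control replicate 3. For the first pair, miR-200b had 0 counts in 2 control and 2 HSA libraries, and 1 count in control replicates 2 and 3 and HSA replicate 1. In those libraries the ratio is set by the miR-200c count and the added 0.5. The test of this pair therefore cannot separate the balance of the clusters from the level of miR-200c. With 6 libraries against 6, no p below 0.00216 is possible.

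Among the 6 HSA libraries, members of the clusters with the same seed were high together in replicates 4 and 5. In HSA replicates 1, 2 and 3, miR-141 and miR-200b were at or under the floor, as was miR-200a in replicates 1 and 2. The order among those low libraries is set by a few counts and by library size. The correlations below therefore rest mainly on the libraries above the floor. Log2(CPM + 1) of miR-200c and miR-200b had a Pearson r of 0.971 (exact permutation p = 0.00833, adjusted 0.0167) and a Spearman rho of 0.928 (exact permutation p = 0.0222, adjusted 0.0222). With the deposited CPM in place of the TMM scale, r was 0.970 and rho was 0.783 (exact permutation p = 0.0778, adjusted 0.0778). Without replicates 4 and 5, the libraries farthest from the median, r was 0.642 and rho was 0.738 over the other 4 libraries. For miR-141 and miR-200a, r was 0.884 (exact permutation p = 0.00833, adjusted 0.0167), rho was 0.928 (exact permutation p = 0.0222, adjusted 0.0222), and without replicates 2 and 5, the farthest for this pair, r was 0.684 and rho was 0.8. With 4 libraries left, the exact permutation p of r was 0.417 for the first pair and 0.375 for the second, 0.417 for both after adjustment. So few libraries give the test little power, and whether either relation holds without the libraries left out cannot be told. The p-values were adjusted over the 4 values.

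MiR-203 followed another order over the HSA libraries than the miR-200 family. In HSA replicate 2 it had 2989 counts while miR-200c had 72, miR-141 and miR-205 had 2 each, and miR-200a, miR-200b and miR-429 had 0. The ratio of miR-203 to miR-200c was 41.5 there (exact 95% interval 32.9 to 53.2) and 15.3 in HSA replicate 3 (10.9 to 22.3). It was 0.695 in HSA replicate 4 (0.629 to 0.768) and 0.835 in HSA replicate 5 (0.809 to 0.862), below 1 in both. In HSA replicates 1 and 6 the intervals, 0.560 to 1.19 and 0.984 to 1.56, included 1. In control miR-203 exceeded miR-200c in all 6 libraries, by ratios from 2.10 to 19.8. Over the HSA libraries, the likeness of miR-203 and miR-200c, measured on log2(CPM + 1), was an r of 0.56 with a rho of 0.0857, whereas that of miR-429 and miR-200c was an r of 0.927 with a rho of 0.829. The ratio of miR-203 to miR-205 varied too and was 4.76 (3.96 to 5.75) in HSA replicate 4 and 39.3 (33.8 to 45.8) in HSA replicate 5.

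By their medians in HSA, the members ranked miR-203 (158 CPM), miR-200c (22.9), miR-429 (4.92), miR-205 (2.45), miR-200a (2.30), miR-141 (1.05) and miR-200b (0.693). Each neighbouring pair overlapped in its range over the 6 libraries. In control, miR-203 (8.52 CPM) was above miR-200c (2.17 CPM) with no overlap of their ranges, and miR-429 (0.791 CPM) followed miR-200c with overlap. The control medians of miR-200a, miR-141 and miR-205 were 0, and that of miR-200b was 0.105 CPM, under the floor.

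The non-member miRNAs whose pattern over the 6 HSA libraries was most like that of miR-200c were miR-215 (r 0.862, rho 0.486), miR-143 (r 0.768, rho 0.943), miR-129 (r 0.767, rho 0.2), miR-145 (r 0.764, rho 0.771) and miR-183 (r 0.750, rho 0.143). The median r with miR-200c over all other tested miRNAs was 0.156. Over all 12 libraries the most alike were miR-215 (r 0.901, rho 0.790), miR-204 (r 0.876, rho 0.888), miR-129 (r 0.876, rho 0.790), miR-450b (r 0.871, rho 0.839) and miR-182 (r 0.869, rho 0.762), where the median was 0.168. These are descriptions over libraries that share their depth and, in the second case, the difference between the groups.

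Most of the other miRNAs associated with epithelium that were tested were also higher in HSA. Of a list of 12, 8 were tested and 6 were called, all as higher in HSA, beside 18.7% of all miRNAs tested. MiR-215, which was among the 6 and is named after its values were seen, had 0 to 1.80 CPM in control and 1.06 to 343 CPM in HSA. It therefore passed the filter mainly through the HSA libraries. Over the 8 the log2 fold change had a median of 4.65, and without HSA replicate 3 the counts were the same and the median was 4.58. The summed level of all 12 was 345 to 701 CPM in control, 436 CPM in HSA replicate 1, 748 CPM in replicate 6, 2115 CPM in replicate 4, 4923 CPM in replicate 2, 16146 CPM in replicate 5 and 17677 CPM in replicate 3. The highest sum thus fell in replicate 3, where miR-200c had 10.9 CPM. MiR-375, a miRNA of endocrine and gut epithelium, was called (log2 fold change 9.83, standard error 1.76, edgeR adjusted p = 0.00156). It reached 4486 CPM in HSA replicate 2, 5292 CPM in replicate 3 and 10488 CPM in replicate 5, but 34.7 CPM in replicate 4, where the miR-200 members were second highest. MiR-192 and miR-194, which are typical of gut, liver and kidney, had log2 fold changes of 4.04 (adjusted p = 0.00526) and 4.21 (adjusted p = 0.00456), with their highest levels, 8082 and 4168 CPM, in HSA replicate 3. Without this library both were still called (edgeR adjusted p = 0.00923 and 0.0077), with a log2 fold change of 2.72 for miR-192. MiR-31, named after its values were seen, went the other way without being called, with a mean of 300.4 CPM in control and 134 CPM in HSA (log2 fold change -1.16, edgeR adjusted p = 0.0487). With 188 to 444 CPM in control, it held much of the summed level of the list there. The sum thus combines its lower level in HSA with the higher levels of the called miRNAs.

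Muscle miRNAs moved the other way in part of the libraries. None of the 8 was called. Their log2 fold changes had a median of -1.24 (-0.98 without HSA replicate 3), and in 4 of 6 HSA libraries their summed level was below the control range. Both medians are the value of miR-133a and miR-133c, whose nearly identical counts also both enter the sum. The 2 HSA libraries within the control range of muscle miRNA, replicates 1 and 6, had the lowest miR-203 and the lowest sums of the 7 members among HSA libraries. MiR-200c did not follow this order on the TMM scale. Its lowest HSA values, 7.98 and 10.9 CPM, were in replicates 2 and 3, where the sum of the members was mainly miR-203. MiR-205 was lowest in these libraries as well. For miR-200c the place of replicate 2 depends on the scaling, since its TMM factor was 1.97, against 0.948 in replicate 6. By library size alone, miR-200c was nearly level in replicates 2 and 6, with 72 of 4605116 and 138 of 8999025 counts. All 4 miRNAs of a leukocyte list, among them miR-150, miR-142 and miR-155, were called higher, beside 18.7% of all miRNAs tested. Without HSA replicate 3, 2 of the leukocyte miRNAs remained called. Their summed levels were 578 to 3555 CPM in HSA and 289 to 424 CPM in control. Of the 4 mesenchymal miRNAs found, among them miR-143, miR-145 and miR-214, none was called, with summed levels of 27719 to 126482 CPM in HSA and 59832 to 90185 CPM in control. Without HSA replicate 3, none of them was called, with a median log2 fold change of 0.10. The endothelial miR-126 was not called either (log2 fold change -0.45, edgeR adjusted p = 0.328), nor was it without HSA replicate 3 (-0.33, edgeR adjusted p = 0.480). Of 4 erythroid entries, led by miR-486 and miR-451, 1 was called higher and 1, miR-486-3p, was called lower (log2 fold change -2.75, edgeR adjusted p = 0.000935). Without HSA replicate 3, 0 erythroid entries were called higher and 1 lower by edgeR. MiR-122, the only miRNA of the liver list, was called higher (log2 fold change 10.58, edgeR adjusted p = 0.0063). Most of that size came from HSA replicate 3, as the log2 fold change was 3.24 without it (edgeR adjusted p = 0.00411). The part of these cell types in the levels of the 7 members was not tested.

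**Figure D4:**
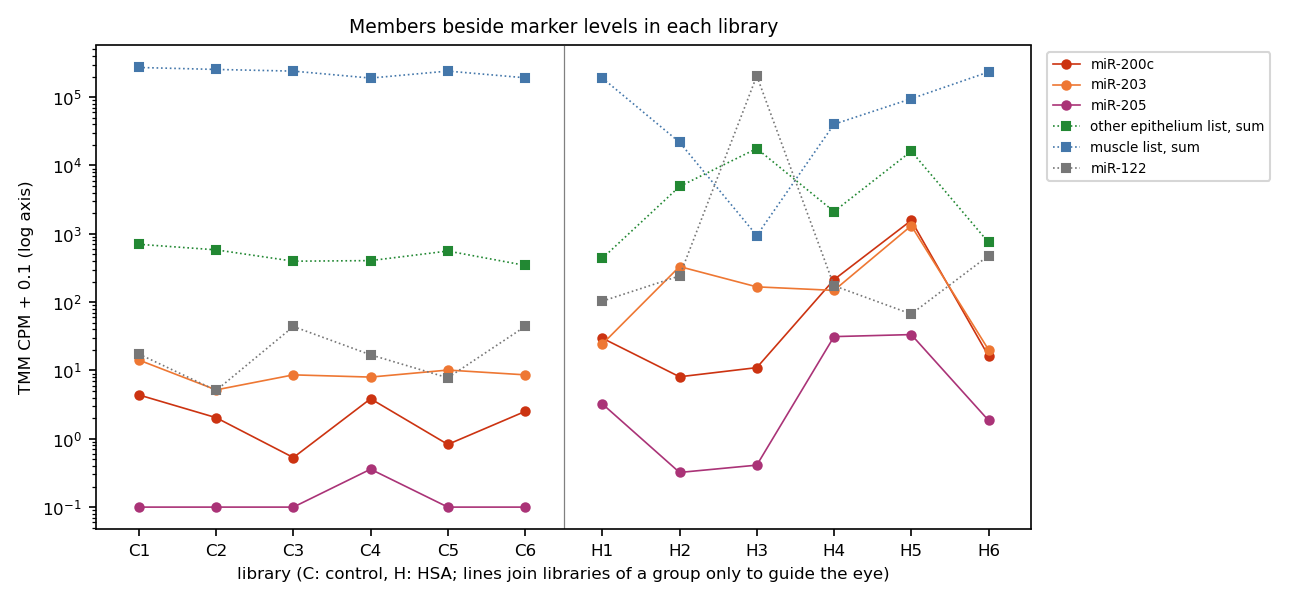
Level of miR-200c, miR-203, miR-205 and miR-122 and the summed levels of the other epithelium-associated and the muscle miRNAs in each library (C1 to C6 control, H1 to H6 HSA), as TMM CPM plus 0.1 on a log axis. The other epithelium-associated miRNAs are highest in HSA replicates 3 and 5, miR-203 in HSA replicates 5 and 2, and miR-200c and miR-205 are highest in HSA replicates 4 and 5.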

How the data were processed

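The authors extracted total RNA from FFPE sections, prepared small RNA libraries of the cardiac samples with the NEXTflex kit (the labels name a QIAseq kit), trimmed adapters with Cutadapt, mapped reads with Bowtie (CanFam3.1) and counted them with HTSeq against the miRBase annotation. The deposited tables hold unnormalized counts and, per library, the CPM made from them, which were recomputed to within 0.00499 CPM. Whether reads on several precursors were counted repeatedly is not given in the sources used here, and entries with the same name and the same counts were merged, leaving 474 of 517 entries. A mature miRNA was represented by its entry with the highest total.

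Counts were compared in R 4.3.3 with edgeR 4.0.16 (quasi-likelihood, TMM, default filter by condition), Benjamini-Hochberg adjustment over all tested entries, and a standard error taken as the absolute log2 fold change divided by the root of F. DESeq2 1.42.0 and limma 3.58.1 were alternatives, and other normalizations, filters, entries, thresholds, a replicate term and leaving out each library were also tried. Scripts were tested on simulated data. Ratios, intervals and permutations used Python 3.11.15 with scipy 1.17.1. Pooled ratios divide counts by effective library sizes. No column was left out. All 7 members are named. Of each list, up to 3 miRNAs with the highest mean level are named, and for likeness the 5 with the highest r. Replicate numbers do not pair the dogs. The dogs of a group are separate samples, but storage age and batch are not in the labels and cannot be told apart from condition. The study states that its dogs with HSA were significantly older than its controls. It also did not exclude dogs that had received chemotherapy. Neither age nor treatment was in the fits used here, so their part in the differences was not tested. The members, marker lists and tests were chosen with earlier results of these data known. The comparisons without HSA replicates 4 and 5, and those of the lists without HSA replicate 3, were added after the values had been seen. The gene table describes another assembly than CanFam3.1, so no coordinates are given.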

Additional observations from a re-analysis of the deposited data

Results flagged for a closer look

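For each member and group, and for both cluster ratios, the gap of the most extreme of the 6 libraries to its neighbour was set against the range of the group. Of 18 groups, 7 exceeded the 95% critical value. Its chance rate of about 1 in 20 holds for normally distributed values and not for groups with most libraries at 0 or with skewed levels, as here. HSA replicate 5 lay far above the other HSA libraries for miR-200c (1569 CPM, next 213 CPM), miR-141 (102 CPM, next 13.5 CPM) and miR-203 (1310 CPM, next 331 CPM). It did not stand apart in this way for miR-429, miR-200b, miR-200a and miR-205. The other 4 are control libraries with a few counts beside libraries at or near 0. For miR-200a, miR-141 and miR-205 the other 5 libraries were at 0, so that a single library with a count exceeds the critical value by construction. The 4 are miR-200b in control replicate 6 (14 counts, 2.25 CPM), miR-200a in control replicate 3 (5 counts, 0.539 CPM), miR-141 in control replicate 6 (3 counts, 0.482 CPM) and miR-205 in control replicate 4 (2 counts, 0.259 CPM).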

How the results depend on the processing

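With each library left out in turn, 24 to 65 miRNAs were called (58 with all) and 1 to 3 members, the count of miRNAs falling most without control replicate 5 (24), 1 (25), 4 (26), 2 (29) or 6 (38) or HSA replicate 4 (38). The log2 fold change then ran from 4.61 to 7.36 for miR-200c, 3.93 to 5.46 for miR-203 and 4.94 to 6.46 for miR-429, and the log2 ratio of group means from 5.38 to 8.20 for miR-141, 7.41 to 8.34 for miR-205, 4.49 to 5.76 for miR-200a and 3.24 to 6.01 for miR-200b. The difference in the log2 ratio of miR-200c to miR-200b ran from 1.75 to 2.91, with an adjusted p from 0.0303 to 0.208, and was 2.32 with a pseudocount of 1. That of miR-141 to miR-200a ran from 0.61 to 1.86, with an adjusted p from 0.0952 to 0.535. Members called numbered 5 with DESeq2 and 4 without the filter. MiR-429 was called with DESeq2 (6.07), library size scaling (6.63) and an adjusted p of 0.05 (6.11). Library size scaling gave 68 higher and 5 lower calls, limma 53 and 5, against 42 and 16, and moved the median log2 fold change to 0.97 and 0.74. Without HSA replicates 4 and 5, 37 miRNAs were called, and without the filter as well, the log2 fold change was 3.20 for miR-200a, 3.14 for miR-141, 4.50 for miR-205 and, reversed, -0.54 for miR-200b. The correlation of miR-141 and miR-200a was 0.811 (exact permutation p = 0.0583) with a pseudocount of 0.1 CPM and 0.684 without its 2 farthest libraries. That of miR-200c and miR-200b was 0.642 without its own, and 4 libraries give the test little power. Other alternatives changed no call of miR-200c or miR-203 except those named in the report and the replicate block.

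With the replicate number as a block, 6 miRNAs were called and 0 members, with log2 fold changes of 4.28 for miR-200c (adjusted p = 0.0334) and 4.01 for miR-203 (adjusted p = 0.0314), both with an unadjusted p under 0.05. Same-numbered libraries come from different dogs, and their deviations from the group means correlated by -0.303 to 0.0832, so the numbers do not pair the samples. MiR-429 without HSA replicate 6, and the members that pass no filter under most settings, gave no fitted value, and the ratio of miR-141 to miR-200a could not be computed from libraries with 3 counts of both, since no control library has them. Depth limits miR-141, miR-200a, miR-200b and miR-205, which were at or under 3 counts in most control libraries. It also limits low values in HSA replicates 1 to 5, which held fewer counts than any control library. In HSA replicate 6, miR-200a, miR-141 and miR-200b had 1.17, 1.17 and 0.938 CPM, under the floor of 1.35 CPM in HSA replicate 1.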
